A study of Homo sapiens with 8 samples.

Results

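The transcripts described here belong to the MYC, MAX and MXD network, a set of 10 genes of the 63677 listed in a gene count table. They were picked by symbol, and all 10 had enough counts to be tested. They are MYC, its partner MAX, the repressors MXD1, MXD3, MXD4 and MXI1 (also called MXD2), the repressors MNT and MGA, the MAX-related partner MLX, and MYCBP2, a ubiquitin ligase that binds MYC. The cells were Jurkat, a long-established human line of T-cell acute lymphoblastic leukaemia (T-ALL), and their RNA was sequenced after 24 h of treatment, with 2 libraries in each of 4 groups. Every group, controls included, was of cells in which the transcription factor TAL1 is joined to FKBP12, the tag that dTAG-13 uses to bring a protein to a ubiquitin ligase for degradation. The groups received the solvent DMSO as control, dTAG-13 alone, GSI alone, or both drugs, called the combination below. GSI commonly stands for gamma-secretase inhibitor, a drug class that stops the cleavage by which NOTCH receptors are activated. Doses, and whether the cells were 1 clone, are not given in the labels, nor is it said whether the 2 libraries of a group came from separate cultures. The p-values therefore measure only the spread between these libraries, which may be technical.

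MYC is a basic helix-loop-helix leucine zipper protein that binds DNA only as a pair with MAX, and the pair activates genes of ribosome building, nucleotide synthesis and cell growth through the E-box, the letters CACGTG. MXD proteins, MNT and MGA also pair with MAX and bind the same letters. MXD proteins and MNT recruit SIN3 and histone deacetylases, and MGA belongs to a Polycomb complex, PRC1.6, so that they oppose MYC at shared sites. MLX pairs with MLXIP, MLXIPL, MNT and some MXD proteins, which joins a nutrient-sensing branch to the network. In T-ALL, MYC is a known direct target of NOTCH1, and growth of these cells depends on it.

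Letters of the E-box stand in the promoters of several network genes themselves. RefSeq promoter windows of 300 bases (GRCh38.p14, 250 before and 50 after an annotated start) were used for the 9 members other than MYC, whose window is not analysed here, with 14 windows in all, and CACGTG, which reads the same on both strands, occurs in 3 of these 14 windows (21.4%) against 7.26% of all 35116 windows. TGGGAA, the core letters bound by RBPJ, the DNA-binding partner of cleaved NOTCH, was searched on both strands and does not overlap the E-box letters. It occurs in 3 of the 14 windows (21.4%) and in 24.0% of all windows. In MYCBP2 and MGA these letters begin 3 and 26 bases after a start, so they are not among the stretches below. MXI1 has windows at several annotated starts, and only that at chr10:110225746-110226045 holds the RBPJ letters. The stretches below are shown because they are the sites that a MAX pair or RBPJ could read in front of the members, with the motif in capitals. Each is read 5′ to 3′ on the gene's own strand.
MXD4, E-box 238 bases before the start, chr4:2262325-2262359, minus strand: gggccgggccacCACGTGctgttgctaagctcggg
MNT, E-box 193 bases before the start, chr17:2401231-2401270, minus strand: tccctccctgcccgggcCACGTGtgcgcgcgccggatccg
MLX, E-box 50 bases before the start, chr17:42567033-42567072, plus strand: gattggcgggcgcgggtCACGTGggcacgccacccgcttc
MXI1, RBPJ letters on the opposite strand 82 bases before the start, chr10:110225897-110225936, plus strand: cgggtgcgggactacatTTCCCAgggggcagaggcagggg
The window of MXD3, the member that rose with GSI (below), holds neither motif, and its 250 bases before the start are given in lower case throughout.
MXD3, chr5:177312753-177313002, minus strand: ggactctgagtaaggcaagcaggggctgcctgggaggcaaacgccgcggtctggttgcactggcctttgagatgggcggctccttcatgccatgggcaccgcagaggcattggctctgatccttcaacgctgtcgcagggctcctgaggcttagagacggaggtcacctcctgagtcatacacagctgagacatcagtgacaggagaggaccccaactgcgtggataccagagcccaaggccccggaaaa
A match describes these letters only, and none was tested for binding here.

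Total counts ran from 17544319 to 22180009 per library, and 7.8% to 8.81% of them were mitochondrial. Of 12 T-lineage markers 11 were above 1 CPM (reads scaled to the size of the library), with summed levels of 3166 to 3434 CPM without GSI and 2985 to 3500 CPM with it, while TRBC1 was listed at 0. All 6 myeloid and all 5 erythroid markers were below 1 CPM, COL1A1 was the only 1 of 5 epithelial and stromal markers above 1 CPM, and of 6 B-lineage markers only CD79A and IGLL1 were above it, with sums of 224.7 to 274.1 CPM without GSI and 322.1 to 475.9 CPM with it. MPO, HBB, EPCAM and CDH1 were listed at 0 in every library. The part of the B-lineage shift in the results below was not tested. DTX1, a NOTCH target used to check the labels, was at 137.7 and 154.4 CPM in DMSO and at 18.4 and 18.9 CPM with GSI, and HES1, another NOTCH target, was at 12.7 CPM in both DMSO libraries and at 2.39 and 3.28 CPM with GSI. TAL1 RNA was at 153.6 and 166.3 CPM in DMSO and at 145.1 and 146.9 CPM with dTAG-13. dTAG-13 acts on the protein, which was not measured, so this RNA does not check that label. With GSI, TAL1 RNA was higher than in DMSO, at 207.8 and 198.1 CPM, and passed the test described below. DTX1 (99.5 and 104.5 CPM) and HES1 (9.4 and 9.51 CPM) were also below both DMSO libraries with dTAG-13 alone, but neither passed that test. In bulk RNA, fewer cells of a type and less RNA per cell cannot be told apart.

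MYC fell with GSI and MXD3 rose, and no other member passed the test against DMSO. With GSI alone, 2 of the 10 members passed the test (edgeR's quasi-likelihood test, Benjamini-Hochberg adjusted over all 15646 genes tested, threshold 0.05), 1 in each direction, while 1.74% of all tested genes passed. With the combination, 2 of 10 passed, 1 in each direction, against 1.31% of all genes. With dTAG-13 alone, none of the 10 members passed, against 0.0192% of all genes. By the same test 2 members had an unadjusted p under 0.05 there, as did 3.84% of all genes, and DESeq2 called 0.

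**Figure D1:**
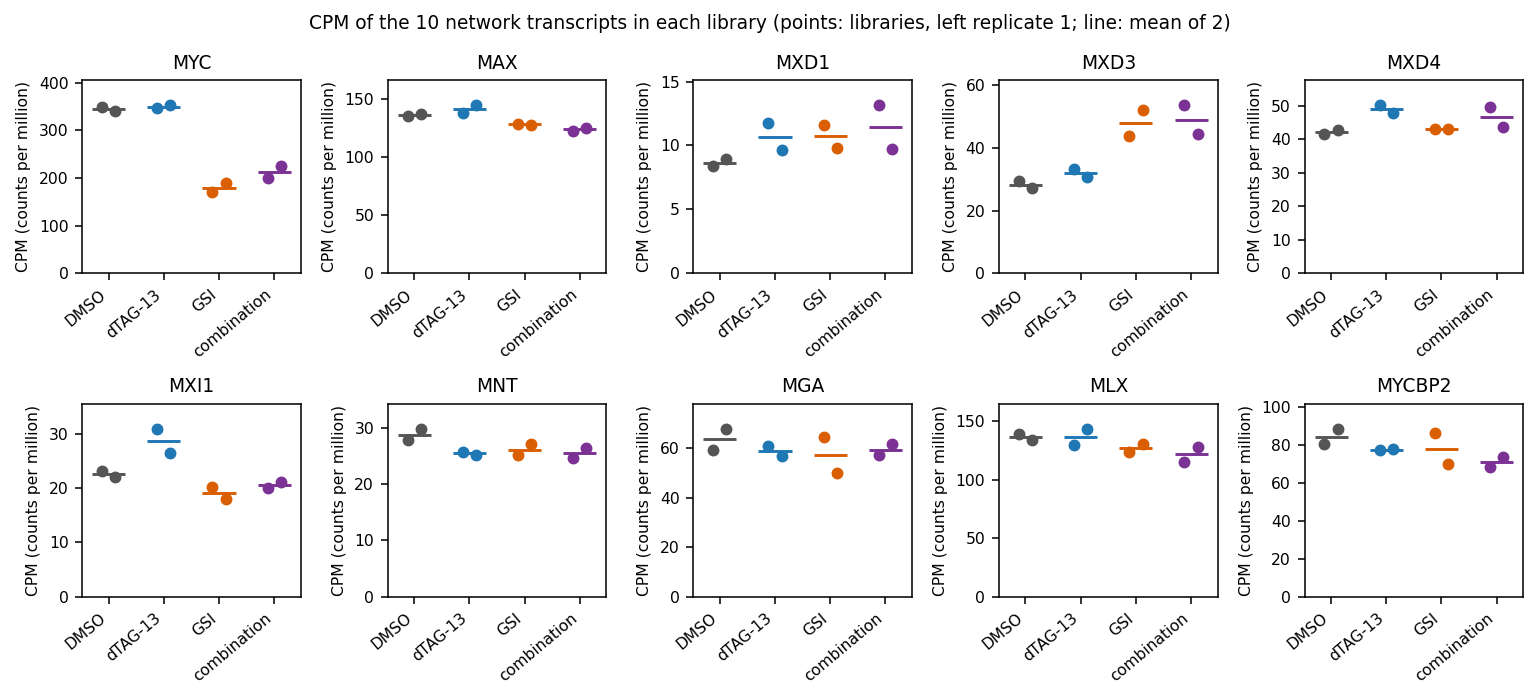
CPM (scaled by TMM; each axis starts at 0) of the 10 network transcripts by group; each point is a library, replicate 1 on the left, and the line is the mean of 2. MYC lies at 340.1 to 352.2 CPM in the 4 libraries without GSI and at 170.1 to 225.1 CPM in the 4 with it, and MXD3 at 27.1 to 33.3 and 43.6 to 53.5 CPM.

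MYC, the activator of the network, was at 349.2 and 340.1 CPM in the DMSO libraries and at 347.6 and 352.2 CPM in the dTAG-13 libraries. It was at 170.1 and 189.7 CPM with GSI, and at 200.2 and 225.1 CPM with the combination. All 4 libraries with GSI lay below all 4 without it, and the DMSO and dTAG-13 ranges overlapped. The mean went from 344.7 ± 6.46 CPM in DMSO (SD, n = 2) to 179.9 ± 13.9 CPM with GSI (SD, n = 2). This is 1.92-fold lower, a log2 fold change of -0.94 (SE 0.09, 95% interval between -1.14 and -0.74, edgeR adjusted p = 1.39e-04). Against DMSO the combination mean of 212.7 ± 17.6 CPM (SD, n = 2) gave -0.70 on the log2 scale (SE 0.09, edgeR adjusted p = 0.00162). MYC passed the test in each of the 10 other settings of either comparison, with a smaller margin for the combination than for GSI. Its log2 fold change over these settings ran from -1.02 to -0.86 with GSI and from -0.78 to -0.61 with the combination.

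The effect of dTAG-13 treatment on MYC was tested both without and with GSI. dTAG-13 alone gave a log2 fold change of 0.02 (SE 0.09, edgeR adjusted p = 1), with a 95% interval between -0.17 and 0.21. In cells also given GSI, both combination libraries (200.2 and 225.1 CPM) were above both GSI libraries (170.1 and 189.7 CPM). That difference, 0.24 on the log2 scale (SE 0.09), did not pass (edgeR adjusted p = 0.999). Set against the 2 single-drug effects added on the log2 scale, MYC in the combination departed by 0.22 (SE 0.13, edgeR adjusted p = 1). Among the members, none passed in the combination against GSI, where 0.0575% of all genes did, and none passed for the departure from additivity, where 0% of all genes did. At an unadjusted p under 0.05 the counts of members were 1 and 0, against 4.14% and 1.66% of all genes, and DESeq2 called 0 in both.

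MAX, the partner that MYC and its antagonists share, was at 135.5 and 136.9 CPM in DMSO, 138 and 144.5 CPM with dTAG-13, 128.8 and 127.7 CPM with GSI, and 122.7 and 125.1 CPM with the combination. The ranges of these 4 groups did not overlap, but the steps were small and none passed. The log2 fold change of MAX with GSI was -0.09 (SE 0.07, edgeR adjusted p = 0.665). With the combination it was -0.14 (SE 0.07, edgeR adjusted p = 0.506).

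Among the MXD repressors, which pair with MAX and bring in histone deacetylases, MXD3 alone passed against DMSO. MXD3, known from dividing cells in S phase, was at 29.3 and 27.1 CPM in DMSO, 33.3 and 30.6 CPM with dTAG-13, 43.6 and 52.0 CPM with GSI, and 53.5 and 44.3 CPM with the combination. Every library with GSI was above every library without it, while GSI and the combination overlapped. The mean rose from 28.2 ± 1.57 CPM in DMSO (SD, n = 2) to 47.8 ± 5.90 CPM with GSI (SD, n = 2), by 69.9% or 0.76 on the log2 scale (SE 0.12, edgeR adjusted p = 0.00688). The combination gave 0.80 against DMSO (SE 0.12, edgeR adjusted p = 0.00556). Both calls of MXD3 were lost when a DMSO library was left out: leaving out replicate 1 gave an adjusted p of 0.0754 with GSI and 0.0609 with the combination, and leaving out replicate 2 gave 0.186 and 0.168.

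The other MXD transcripts did not pass against DMSO. MXD1, linked to differentiation of blood cells, was the lowest in counts, at 8.37 and 8.94 CPM in DMSO, 11.8 and 9.65 CPM with dTAG-13, 11.6 and 9.79 CPM with GSI, and 13.1 and 9.73 CPM with the combination. Its 6 treated libraries were all above both DMSO libraries, and its log2 fold change with the combination was 0.40 (SE 0.17, edgeR adjusted p = 0.354). MXD4 was at 41.5 and 42.9 CPM in DMSO, 50.03 and 47.9 CPM with dTAG-13, 42.9 and 43.0 CPM with GSI, and 49.6 and 43.6 CPM with the combination. For MXD4 the libraries with dTAG-13 lay above those of the matching group without it, by 0.17 on the log2 scale averaged over both backgrounds (SE 0.06, edgeR adjusted p = 0.69).

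MXI1 was at 23.2 and 22.0 CPM in DMSO, 30.9 and 26.4 CPM with dTAG-13, 20.2 and 17.9 CPM with GSI, and 20.1 and 21.2 CPM with the combination. The dTAG-13 libraries were the highest, and both groups with GSI lay below DMSO. With dTAG-13 the log2 fold change was 0.34 (SE 0.11, edgeR adjusted p = 0.875), and with GSI it was -0.25 (SE 0.12, edgeR adjusted p = 0.368). The combination against dTAG-13 gave -0.48 (SE 0.11, edgeR adjusted p = 0.0694), which passed without the filter on low counts (adjusted p = 0.00702).

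MNT, MGA, MLX and MYCBP2 did not pass in any of the 8 comparisons as fitted. MNT, a widely expressed antagonist of MYC, was at 27.8 and 29.8 CPM in DMSO and between 24.6 and 27.1 CPM in the 6 treated libraries, which all lay below both DMSO libraries. Its log2 fold changes against DMSO were -0.18 with dTAG-13 (SE 0.10), -0.14 with GSI (SE 0.10) and -0.18 with the combination (SE 0.10), with edgeR adjusted p from 0.519 to 1. MGA, the scaffold of PRC1.6, ranged from 50.2 CPM in GSI replicate 2 to 67.8 CPM in DMSO replicate 2, and its groups overlapped. MLX was at 138.4 and 133.7 CPM in DMSO and lowest, at 114.9 CPM, in combination replicate 1. MYCBP2 was at 80.4 and 88.6 CPM in DMSO and at 68.7 and 73.5 CPM with the combination, a log2 fold change of -0.25 (SE 0.10, edgeR adjusted p = 0.34). The widest 95% interval in the comparisons with DMSO was that of the least precise member, MXD1, at 0.37 to either side of the estimate. This interval is not adjusted and is not the limit of the adjusted test. MXD1 at 0.40 with the combination did not pass, so a change of that size can go uncalled.

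**Figure D2:**
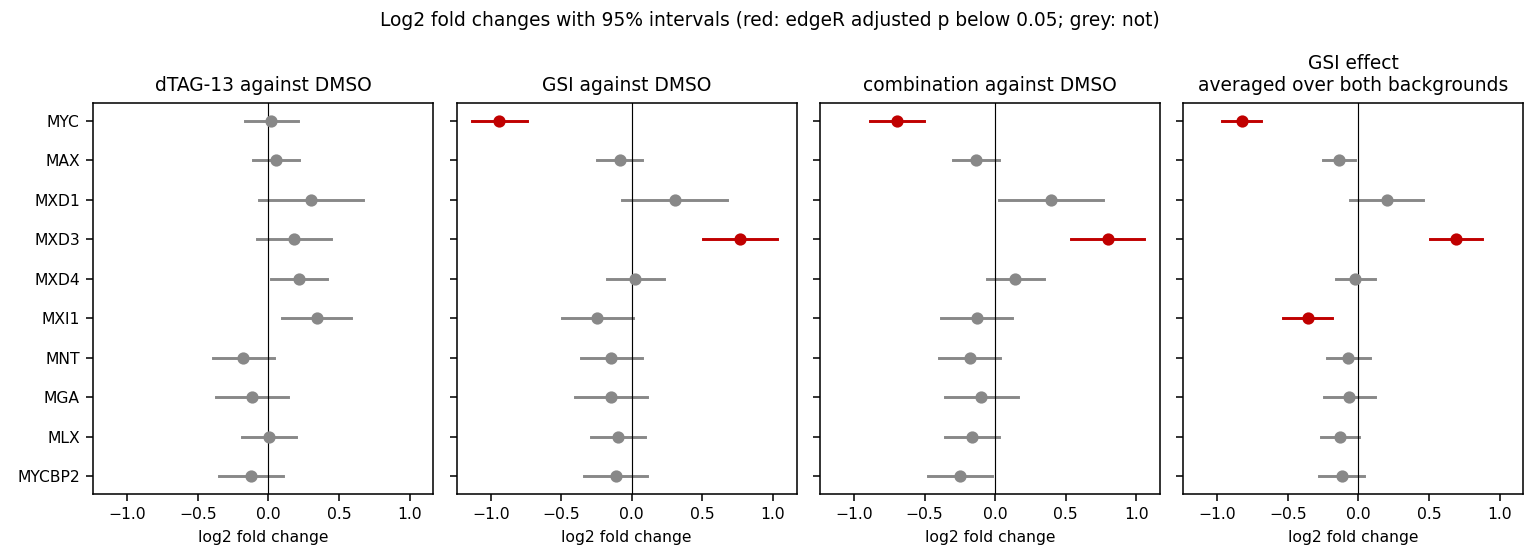
Log2 fold change (x axis) of each network transcript in 4 comparisons, from edgeR; points are estimates, lines are 95% intervals, and red marks an adjusted p below 0.05. MYC (-0.94 with GSI) and MXD3 (0.76 with GSI) stand apart on opposite sides of 0, and MXI1 is marked only in the GSI effect averaged over both backgrounds.

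The effect of GSI could also be read in cells given dTAG-13. In the combination against dTAG-13, 2 of 10 members passed, 1 in each direction, against 1.21% of all genes. MYC fell by 0.72 on the log2 scale (SE 0.09, edgeR adjusted p = 0.00139). MXD3 was higher by 0.62 (SE 0.12, edgeR adjusted p = 0.0278). The MXD3 call was lost without dTAG-13 replicate 1 (adjusted p = 0.123), without dTAG-13 replicate 2 (0.33), without combination replicate 1 (0.184) and when only the 4 compared libraries were fitted (0.0569).

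Averaging the GSI effect over cells with and without dTAG-13 sets 4 libraries against 4. In this comparison 3 of 10 members passed, 1 higher and 2 lower, against 6.94% of all genes. MYC was at -0.83 on the log2 scale (SE 0.06, edgeR adjusted p = 1.1e-05) and MXD3 at 0.69 (SE 0.08, edgeR adjusted p = 4.75e-04), and both passed in all 13 other settings. MXI1 fell by 0.36 on the log2 scale (SE 0.08, edgeR adjusted p = 0.0197). All 4 libraries of MXI1 with GSI (17.9 to 21.2 CPM) were below all 4 without it (22.0 to 30.9 CPM). MXI1 passed in 9 of the 13 other settings and was lost when 1 of 4 libraries was left out: dTAG-13 replicate 1 (adjusted p = 0.0911), combination replicate 1 (0.0557), DMSO replicate 1 (0.0976) or its replicate 2 (0.0784). The 7 other members lay between -0.14 and 0.20 on the log2 scale, with edgeR adjusted p from 0.142 to 0.884. For dTAG-13 averaged over both backgrounds none of the members passed, against 0.499% of all genes, 2 had an unadjusted p under 0.05, against 6.08% of all genes, and DESeq2 called 0.

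The authors' deposited tables, each of 1 treatment against DMSO, call the same number of members. In the authors' deposited table of GSI, 2 members have an adjusted p below 0.05, MYC at a log2 fold change of -0.949 and MXD3 at 0.753. In the authors' deposited table of the combination, 2 members pass, MYC at -0.702 and MXD3 at 0.791, and the authors' deposited table of dTAG-13 has 0.

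Levels of different genes were compared per length, as CPM per kilobase of exon, with exons of GENCODE v29 merged per gene. MYC stood highest in DMSO at 114.8 ± 2.14 CPM per kilobase (SD, n = 2). MLX followed at 52.5 ± 1.28 (SD, n = 2) and MAX at 33.2 ± 0.24 (SD, n = 2), and these ranges did not overlap. With GSI, MYC was at 59.95 ± 4.62 CPM per kilobase (SD, n = 2), which was still above MLX at 49.1 ± 1.99 (SD, n = 2). By their means, MYC, MLX and MAX were the highest 3 in this order in all 4 groups, under both the basic and the full set of transcripts. With the full set the ranges of MLX and MAX overlapped in the 3 treated groups, so they have no order there beyond their spread.

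The repressors and MYCBP2 were less abundant per kilobase. In DMSO, MXD4 was at 10.4 ± 0.23, MXD3 at 8.56 ± 0.48, MNT at 5.77 ± 0.29, MYCBP2 at 5.73 ± 0.39, MXI1 at 5.59 ± 0.21, MGA at 4.18 ± 0.40 and MXD1 at 1.54 ± 0.07 CPM per kilobase (SD, n = 2 each). MNT, MYCBP2 and MXI1 overlapped and have no order beyond their spread, while MXD4, MXD3 and MXD1 did not overlap their neighbours with the basic set. With the full set, MXD3 (5.25 to 5.681) overlapped MYCBP2 (5.042 to 5.555) in DMSO. With GSI, MXD3 at 14.5 ± 1.79 CPM per kilobase (SD, n = 2) was above MXD4 at 10.6 ± 0.01 (SD, n = 2). The order of MXD3 and MXD4 was thus exchanged between DMSO and GSI, and likewise between DMSO and the combination, under both sets of transcripts. Which transcripts were used changed the place of MNT in DMSO, from the sixth with the basic set to the ninth with the full set.

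Within each library the ratio of MYC to the other members was also taken, since MYC and its antagonists compete for MAX. Only its change between groups is described and the change was not tested. The log2 ratio of MYC to MXD3 was 3.57 and 3.65 in DMSO, 3.38 and 3.52 with dTAG-13, 1.96 and 1.87 with GSI, and 1.90 and 2.34 with the combination. This ratio was 3.24-fold lower with GSI and 2.80-fold lower with the combination than in DMSO. The log2 ratio of MYC to MAX was 1.37 and 1.31 in DMSO, 1.33 and 1.28 with dTAG-13, 0.40 and 0.57 with GSI, and 0.71 and 0.85 with the combination. The ratio to MAX was thus 1.81-fold lower with GSI and 1.48-fold lower with the combination. Against the other 7 members, the MYC ratio with GSI was between 1.62-fold (MXI1) and 2.36-fold (MXD1) lower. The GSI libraries did not overlap those of DMSO for any of the 9. All 9 ratios share the same MYC values, so the fall of MYC enters each of them, and they are not 9 separate results.

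**Figure D3:**
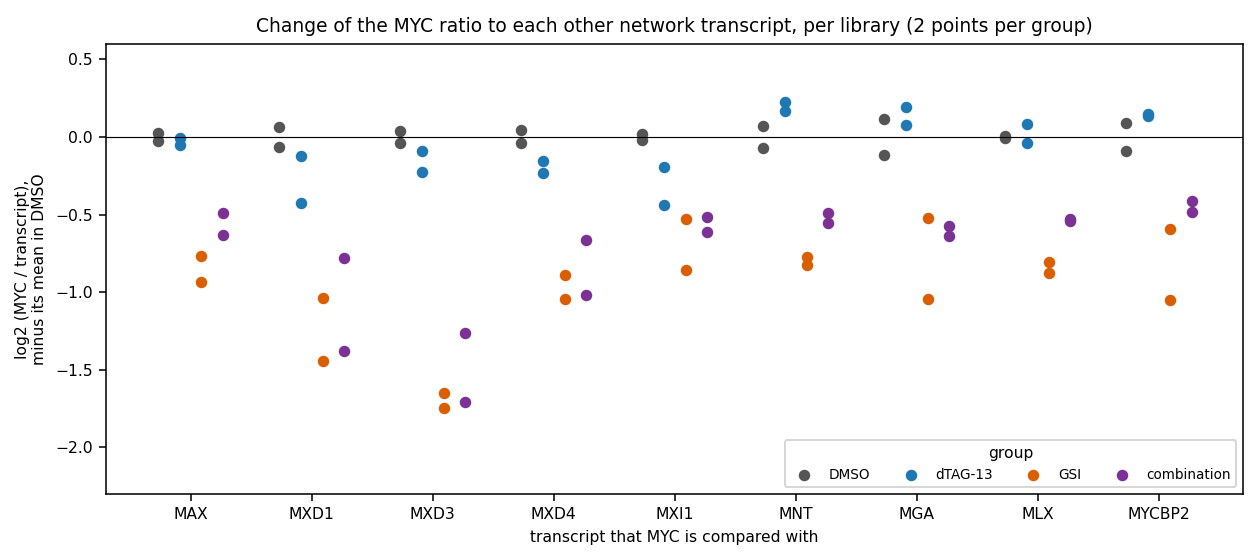
Log2 ratio of MYC CPM to the CPM of each other network transcript (x axis), minus the mean of the DMSO libraries; each point is a library. Libraries with GSI or the combination lie below those of DMSO for all 9 transcripts, and the difference is widest for MXD3 (-1.70 with GSI). The fall of MYC enters all 9 ratios.

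Genes whose pattern over the 8 libraries was most like that of a member were named by the Pearson correlation of log2 CPM, among the 10230 genes that averaged 5 CPM or more. For MYC these were TRIM65 (r = 0.994), ALDH18A1 (0.991), CEP70 (0.990), DNPEP (0.990) and SNHG3 (0.990). For MXD3 they were CEP41 (0.988), EVI2A (0.975) and UBE2F (0.972), and for MXI1 they included PABPC1 (0.972) and MRPL38 (0.966). These correlations are descriptions, chosen as the highest of many over 8 points that fall into groups by GSI. SNHG3, a host gene of small nucleolar RNAs, was at 114.4 to 123.9 CPM without GSI and 66.9 to 88.3 CPM with it. UBE2F, an enzyme that attaches the ubiquitin-like protein NEDD8, was at 27.7 to 29.5 CPM without GSI and 37.2 to 44.4 CPM with it. SNHG3 and UBE2F passed with GSI against DMSO, as did CEP70, DNPEP and EVI2A. The others named did not: TRIM65 (edgeR adjusted p = 0.0683), ALDH18A1 (0.112), CEP41 (0.42), PABPC1 (0.831) and MRPL38 (0.489).

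Genes that act with the network were counted in lists picked from background knowledge, but with earlier results of these data known. Over all genes tested, 14% had an unadjusted p under 0.05 with GSI and 12.4% with the combination, and the counts at that level below stand beside these shares. Of 40 genes reported as activated by MYC, all 40 were tested. With GSI all 40 had a negative log2 fold change, against 48.6% of all genes, with a median of -0.348 against 0.00709 over all genes. Of these 40, 3 passed, all lower, against 1.74% of all genes, and 27 had an unadjusted p under 0.05. The 3 were POLR1B, a subunit of RNA polymerase I (log2 fold change -0.49, SE 0.09, edgeR adjusted p = 0.0173), UTP20, a ribosome assembly factor (-0.45, SE 0.09, edgeR adjusted p = 0.0292), and CAD, the multienzyme protein that starts pyrimidine synthesis (-0.40, SE 0.08, edgeR adjusted p = 0.0258). POLR1B was at 71.6 and 80.95 CPM in DMSO and at 54.7 and 53.9 CPM with GSI, with no overlap.

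With the combination, 38 of the 40 had a negative log2 fold change, the median was -0.308 against 0.00245 over all genes, and 2 passed, against 1.31% of all genes. They were POLR1B (-0.55, SE 0.09, edgeR adjusted p = 0.0114) and UTP20 (-0.42, SE 0.09, edgeR adjusted p = 0.0474). The shift differed between the libraries: the list's median difference from the DMSO library of the same number was -0.404 in combination replicate 1 and -0.135 in combination replicate 2, and -0.342 and -0.265 with GSI. Without either DMSO library 0 of the 40 passed in both comparisons. Without GSI replicate 1 the count with GSI was 1, and for the combination it was 0 without combination replicate 1 and 14 without combination replicate 2.

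In the GSI effect averaged over both backgrounds, 21 of the 40 fell and none rose, against 6.94% of all genes called in either direction, with a median of -0.335 against 0.00703 over all genes. Among them were NOP16, a nucleolar protein (-0.58, SE 0.12, edgeR adjusted p = 0.0151), SRM, the spermidine synthase (-0.53, SE 0.10, edgeR adjusted p = 0.0102), ODC1, the first enzyme of polyamine synthesis (-0.28, SE 0.07, edgeR adjusted p = 0.037), and NPM1, the nucleolar chaperone (-0.36, SE 0.08, edgeR adjusted p = 0.0205). These 4 were picked after their values were seen. With dTAG-13 alone none of the 40 passed, 0 had an unadjusted p under 0.05, DESeq2 called 0, and the median was 0.0203 against 0.00577 over all genes.

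Of 10 genes reported as repressed by MYC, 8 were tested and none passed with GSI or with the combination, where 1 had an unadjusted p under 0.05 in each. DESeq2 called 0 of them with GSI and 1, CDKN1B, with the combination. CDKN1B is the cell cycle inhibitor p27. In the averaged GSI effect it alone of the 8 passed (0.27, SE 0.06, edgeR adjusted p = 0.022), against 6.94% of all genes. It was at 61.7 to 70.4 CPM without GSI and 74.1 to 86.8 CPM with it. The list's median was 0.131 with GSI and 0.248 with the combination. Several of its genes had few counts, so its medians are imprecise. In DMSO, PDGFRB, CDKN1A, CEBPA and CDKN1C averaged 0.72, 0.89, 0.68 and 1.4 CPM, with SE of 0.36 to 0.44 for GSI. In the averaged GSI effect the list had a median of 0.0508, with 4 genes positive and 4 negative. In the combination against dTAG-13 the list had a median of -0.0296, again with 4 positive and 4 negative. By library, its median difference from the DMSO mean was 0.237 in GSI replicate 1 and 0.0336 in GSI replicate 2. It was 0.231 and 0.00956 in the combination replicates. Replicate 1 was thus the higher in both groups, but also in DMSO itself (0.0963 and -0.0963). Against the DMSO library of the same number, the medians were 0.199 and 0.143 with GSI, and 0.0922 and 0.168 with the combination. The order of the combination replicates thus depended on the DMSO value used.

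**Figure D4:**
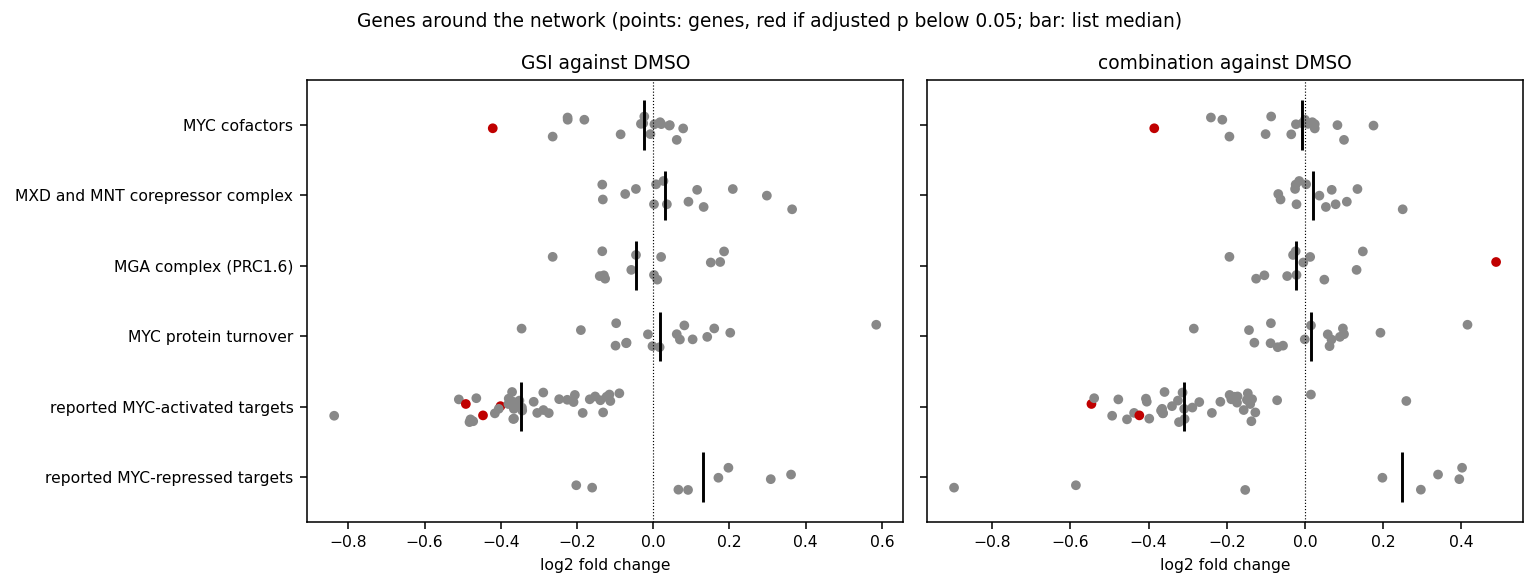
Log2 fold change (x axis) of genes around the network, by list, for GSI and for the combination against DMSO; each point is a gene, red where the edgeR adjusted p is below 0.05, and the bar is the list's median. Of the 40 reported MYC-activated genes, all lie to the left of 0 with GSI (median -0.348) and 38 with the combination (median -0.308). The medians of the cofactor, corepressor, PRC1.6 and turnover lists lie close to 0.

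Cofactors and corepressors, through which MYC and its antagonists act, were counted next. Of 17 cofactors of MYC, 1 passed with GSI and 1 with the combination, in both cases KAT2A, a histone acetyltransferase (-0.42, SE 0.08, edgeR adjusted p = 0.024 with GSI, and -0.39, SE 0.08, edgeR adjusted p = 0.0474 with the combination). KAT2A was at 138.5 to 144.6 CPM without GSI and at 100.5 to 115.2 CPM with it. In the averaged GSI effect 2 of the 17 passed, KAT2A and WDR5, both lower, against 6.94% of all genes, and DESeq2 called 3 (also RUVBL1). None of the 14 corepressor genes through which MXD proteins and MNT act passed with GSI or with the combination. Their medians were 0.0313 and 0.0202, 2 and 0 had an unadjusted p under 0.05, and DESeq2 called 0 in both.

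Of 13 genes of the MGA complex, none passed with GSI (1 at an unadjusted p under 0.05, 0 by DESeq2) and 1 passed with the combination. It was TFDP2, the DNA-binding partner of E2F proteins (0.49, SE 0.08, edgeR adjusted p = 0.0114), at 162.4 and 156.0 CPM in DMSO and at 234.9 and 212.1 CPM with the combination. In the averaged GSI effect 1 of the 13 passed higher and 1 lower, against 6.94% of all genes. The higher was TFDP2 (0.23, SE 0.06, edgeR adjusted p = 0.0381). The lower was WDR5, a histone methylation cofactor listed both with this complex and with MYC (-0.22, SE 0.06, edgeR adjusted p = 0.0478). Of 17 tested genes that control the stability of the MYC protein, none passed with GSI or the combination, where 4 and 2 had an unadjusted p under 0.05 and DESeq2 called 1 (USP36) and 0. In the averaged GSI effect 1 of the 17 passed, against 6.94% of all genes. It was USP36, a nucleolar deubiquitinase, which fell (-0.24, SE 0.06, edgeR adjusted p = 0.0274). MYC protein itself was not measured.

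The relatives of MYC and MLX were counted last. Of 6 further family members 5 were tested, and none passed in any of the 8 comparisons, by edgeR or by DESeq2, with at most 1 at an unadjusted p under 0.05 in each. MYCN was at 0.32 to 1.08 CPM and MYCL at 1.58 to 2.37 CPM over the 8 libraries. MLXIP, the glucose-sensing partner of MLX, was at 171.2 and 174.2 CPM in DMSO and at 202 and 182.9 CPM with GSI (0.16, SE 0.08, edgeR adjusted p = 0.432). Of its targets, TXNIP was listed at 0 to 4 counts per library, and ARRDC4, an arrestin-domain protein, was at 9.88 and 12.2 CPM in DMSO, 15.4 and 15.5 CPM with dTAG-13, 7.51 and 8.30 CPM with GSI, and 10.2 and 8.63 CPM with the combination. ARRDC4 fell in the combination against dTAG-13 (-0.72, SE 0.14, edgeR adjusted p = 0.0286) and in the averaged GSI effect (-0.60, SE 0.10, edgeR adjusted p = 0.00382). ARRDC3, the only other target of the 4 listed that was tested, went the other way. Its log2 fold changes in these comparisons were 0.54 and 0.43, and neither passed. It was at 5.83 and 5.36 CPM in DMSO, 8.4 and 5.45 CPM with GSI, and 10.75 and 8.39 CPM with the combination. From the MYC locus, the noncoding PVT1 was at 6.93 and 5.58 CPM in DMSO, 3.94 and 4.87 CPM with GSI, and 4.05 and 4.56 CPM with the combination, and did not pass with GSI (-0.50, SE 0.18, edgeR adjusted p = 0.237).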

How the data were processed

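Strand-specific paired-end libraries of total RNA had been made, per the labels' protocols. The authors used STAR 2.5.2a, featureCounts and DESeq2 1.12.4 with hg19, per the submitters' processing notes. For the strand setting and annotation of the counting nothing is stated in the sources used here, so overlapping and antisense genes cannot be told apart. The authors deposited raw integer counts per gene, and 3 tables with a normalized mean signal, log2 fold changes, a score (the Wald statistic) and p-values.

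Genes kept by filterByExpr (15646, at least 99.891% of each library's counts) were scaled by TMM and fitted with edgeR 4.0.16 in R 4.3.3 as 4 groups over all 8 libraries, with robust quasi-likelihood, 4 residual degrees of freedom and 2-sided tests. The biological coefficient of variation was 0.0804. CPM are TMM-scaled, and correlations and ratios used log2 CPM with a prior count of 2. Replicates of a group differed by more than counting noise, with chi-square values of 4.42 to 13.4 for each degree of freedom.

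Other settings were DESeq2 size factors, the Wald test of DESeq2 1.42.0, no filter, a replicate block, only the 4 compared libraries, and leaving out each library. A block with the DMSO numbers crossed and lengths from the full annotation were added after seeing the data. The members and lists were chosen with earlier results of these data known. Beside the members and checks, genes were named by a rule: up to 3 called members of each list in each direction with GSI or the combination. Every called member of lists of at most 6 genes was also named. NOP16, SRM, ODC1, NPM1, WDR5, USP36, CDKN1B and RUVBL1 lie outside this rule and were named from calls in the averaged GSI effect or by DESeq2. Some genes that were not called were named as well, such as MYCN, MYCL, MLXIP and PVT1. The script was tested on simulated counts, and 1 gene with a pattern like MXI1 is not reported here.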

Additional observations from a re-analysis of the deposited data

Results flagged for a closer look

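MAX was the only network transcript whose libraries with and without dTAG-13 did not overlap in either background and lay in opposite orders. Without GSI both dTAG-13 libraries (138 and 144.5 CPM) were above both DMSO libraries (135.5 and 136.9 CPM), a log2 fold change of 0.05276. With GSI both combination libraries (122.7 and 125.1 CPM) were below both GSI libraries (128.8 and 127.7 CPM), a log2 fold change of -0.05029. The difference itself, -0.10 on the log2 scale (SE 0.11, edgeR adjusted p = 1), did not pass. The share of all genes with such a pattern was not counted, so the pattern is not shown to be particular to MAX.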

How the results depend on the processing

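No direction of a called member reversed in any setting. Of the 10 members, 1 to 2 passed with GSI, 1 to 2 with the combination and 1 to 2 in the combination against dTAG-13 when a library was left out, and 2 to 3 in the averaged GSI effect. With only the 4 compared libraries 1 passed in the combination against dTAG-13. With a replicate block 2 passed with GSI, 2 with the combination, 3 in the combination against dTAG-13 (MXI1 joined, adjusted p = 0.0227) and 3 in the averaged GSI effect. The block is not used as pairing, since the labels share only a number: deviations of DMSO libraries from their mean correlated with those of the other groups at -0.183, -0.369 and -0.134, and those of the other groups with each other at 0.504 to 0.58. With the DMSO numbers crossed in the block, 5 members passed in the averaged GSI effect, where MAX (adjusted p = 0.028) and MLX (0.0357) joined, MYCBP2 passed with the combination (0.0454), and MXI1 passed in the combination against dTAG-13 (0.00137). Of the 40 reported MYC-activated genes, 3 passed with GSI; the count was 22 without the filter, 6 with the DESeq2 Wald test, 17 with the replicate block, 29 with the crossed block and 0 to 3 without a library. With the combination 2 passed, and the count was 16, 5, 13, 24 and 0 to 14 in the same order. Over all genes, the 272 called with GSI became 660 without the filter, 559 with the replicate block, 1581 with the crossed block and 32 to 232 without a library, and the 205 called with the combination became 532, 413, 1191 and 38 to 258. The 189 called in the combination against dTAG-13 became 563, 476, 1434 and 43 to 264, and 96 with only the 4 compared libraries, and the 1086 of the averaged GSI effect became 1815, 1822, 3221 and 342 to 1524. The 3 called with dTAG-13 became 51, 23, 94 and 0 to 2, with 21 by the DESeq2 Wald test and 71 with only the 4 compared libraries. The 9 of the combination against GSI became 59, 34, 103 and 6 to 7, with 20 by the Wald test and 3 with the 4 libraries, and the 78 of the averaged dTAG-13 effect became 165, 135, 283 and 14 to 78. The cause of these shifts was not tested. With 2 libraries per group, 1 library decides many calls. For MXD1, at 145 to 282 counts per library, a log2 change of 0.40 with the combination did not pass.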
